A study of Mus musculus with 72 samples.

Results

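The cell cycle and GADD45 genes described here are *Cdkn1a*, *Wee1*, *Ccnd1*, *Gadd45a*, *Gadd45b*, *Gadd45g*, *Btg2* and *Myc*. They were chosen by symbol or alias, as genes that link the circadian clock and stress signals to cell division. The deposited signal table held all 8 of them, out of 16593 genes, with 15 probes in all. *Wee1*, *Gadd45b* and *Btg2* had 1 probe each, and for the other 5 genes the probe with the highest mean stood for the gene.

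Liver RNA was taken every 2 h over 12 times, named here as zeitgeber time (ZT, with lights on at ZT0 and off at ZT12), from *Scp2* knock-out mice (KO) and their controls (WT). Each of the 24 groups held 3 arrays from individual mice, which gave 36 arrays per genotype and 72 in all. The mice were young adult males. The paper describes the KO mice as lacking the whole *Scp2* locus, which codes for the sterol carrier protein SCP2 and the thiolase SCPx. They had been backcrossed into C57Bl/6. WT mice were C57Bl/6J, and both came from the same supplier. Mice of both genotypes were kept in light and dark phases of equal length and were fed only at night on the days before they were killed, so feeding time was the same in all groups.

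In the liver, the circadian clock is a loop in which BMAL1 and CLOCK activate *Per*, *Cry* and *Nr1d1*, whose products act back on it. Several cell cycle genes are reached by this loop: *Wee1* codes for a kinase that holds back entry into mitosis and carries E-boxes for BMAL1 and CLOCK in its promoter, and p21, the product of *Cdkn1a*, is a cyclin-dependent kinase inhibitor that REV-ERBα and RORs regulate through its promoter. *Ccnd1* codes for cyclin D1, which drives cells from G1 into S phase, GADD45 proteins are small stress-induced proteins that bind p21 and kinases upstream of p38 and JNK, *Btg2* codes for an antiproliferative factor and *Myc* for a growth-promoting transcription factor. Most hepatocytes of an adult liver are out of the cell cycle, so these mRNAs are read there largely outside mitosis.

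The genotype was checked on *Scp2*. Its probe ILMN_2705881 fell on the log2 scale from 12.23 (WT) to 5.89 (KO) and ILMN_2705886 from 12.92 to 5.998, whereas ILMN_1221684 kept a signal of 10.29 in KO against 11.75 in WT. Most hepatocyte markers were among the brightest genes, with a median at percentile 99.93 of signal. Of the 8 measured, 7 lay above the 25th percentile, and the remaining marker was dim. Median signals per array ran from 96.1 to 114 in WT and from 95.5 to 114 in KO. A WT array at ZT12 (set 6) had the highest summed signal of the Kupffer cell, endothelial, stellate cell and lymphocyte markers of all arrays, and counts of the members that passed a test did not change without it. All levels are log2 values after background correction and quantile normalization. A probe's brightness depends on its sequence, so levels are compared within a probe only. The array reads RNA of the whole liver, and fewer cells of a type cannot be told apart from less RNA per cell. No detection p-values came with the signals. The percentile of a gene's mean signal among all genes is given instead, and 6 of the 8 members lay above the 25th percentile.

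The start regions of the genes whose patterns are described below are shown first. RefSeq windows of 300 bases (250 before the annotated start to 50 after it, build GRCm38.p6) were taken for *Btg2*, *Cdkn1a*, *Gadd45a*, *Gadd45b* and *Gadd45g*, and none was used here for *Wee1*, *Ccnd1* and *Myc*. They were searched on both strands for the E-box CACGTG, the D-box TTANGTAA, the ROR element TAGGTCA, the cAMP response element TGACGTCA and its overlapping part TGACG, the glucocorticoid response element (GNACA and TGTNC with 3 bases between them) and a p53 element core (a pair of ACATGT with 4 bases between them). The last was added after the *Cdkn1a* window had been read. Capitals mark the matches. *Gadd45b* and *Gadd45g* are shown as the family members with an E-box, and *Cdkn1a* because its upstream start carries the p53 element core.
Gadd45g, chr13:51846425-51846724, plus strand: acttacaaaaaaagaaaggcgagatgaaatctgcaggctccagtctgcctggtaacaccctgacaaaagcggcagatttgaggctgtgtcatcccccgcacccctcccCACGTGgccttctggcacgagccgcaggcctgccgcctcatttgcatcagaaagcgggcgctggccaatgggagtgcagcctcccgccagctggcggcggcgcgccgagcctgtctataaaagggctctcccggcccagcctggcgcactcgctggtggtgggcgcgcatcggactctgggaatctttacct
Gadd45b, chr10:80929841-80930140, plus strand: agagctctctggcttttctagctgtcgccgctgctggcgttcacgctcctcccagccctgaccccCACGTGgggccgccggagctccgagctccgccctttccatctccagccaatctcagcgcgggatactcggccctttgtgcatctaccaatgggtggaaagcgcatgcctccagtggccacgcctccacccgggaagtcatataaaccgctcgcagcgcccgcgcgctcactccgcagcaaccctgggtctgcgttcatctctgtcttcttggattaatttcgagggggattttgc
Cdkn1a, upstream start, chr17:29090729-29091028, plus strand: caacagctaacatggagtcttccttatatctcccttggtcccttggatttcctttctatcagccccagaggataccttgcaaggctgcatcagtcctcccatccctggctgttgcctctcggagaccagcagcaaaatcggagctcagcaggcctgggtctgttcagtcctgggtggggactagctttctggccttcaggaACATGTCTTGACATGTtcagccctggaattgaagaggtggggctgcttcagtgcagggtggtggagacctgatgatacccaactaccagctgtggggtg

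The E-box began 142 bases before the *Gadd45g* start (offset -142) and 185 bases before that of *Gadd45b* (offset -185). Of 32851 windows of this length, 7.15% held this E-box. The p53 element core began at offset -49 in the upstream *Cdkn1a* window and was present in 4 windows of the whole table (0.0122%). Since this pattern was added after that window had been read, the match and its rarity are no test. *Cdkn1a* is the best known target gene of p53. The second *Cdkn1a* window (chr17:29093519-29093818) and the *Gadd45a* window on chromosome 6 held none of the motifs. The *Btg2* window on chromosome 1 held a cAMP response element at offset -166, as did 1.79% of windows. These matches are letters in a window, and no binding was measured.

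Over the 8 members, 2 passed the 24 h rhythm test in WT (*Cdkn1a* and *Ccnd1*), where 15.8% of all genes did, and 3 in KO (the same 2 and *Gadd45a*), where 13.7% of all genes did. Rhythms in both genotypes were thus found for 2 members, beside 9.43% of all genes. Rhythms were tested by regression of 36 arrays on cosine and sine terms (F-test), and adjusted p (Benjamini-Hochberg, all genes) had to be under 0.05. Only *Ccnd1* differed in level between the genotypes by limma, 1 of 8 beside 12.3% of all genes, and it was lower in KO, as were 6.38% of all genes. No member differed in rhythm (limma F-test of the interaction of genotype with the cosine and sine), a test that 0.127% of all genes passed. *Cdkn1a* had an unadjusted p under 0.05 in it. None of the 96 contrasts of a member at a single ZT passed limma's test, where 0.863% of all gene and time pairs did, and 7 of the 96 had an unadjusted p under 0.05, beside 8.57% of all pairs. WT and KO arrays did not overlap in 15 of the 96 pairs, close to the 13.2% of all gene and time pairs.

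**Figure D1:**
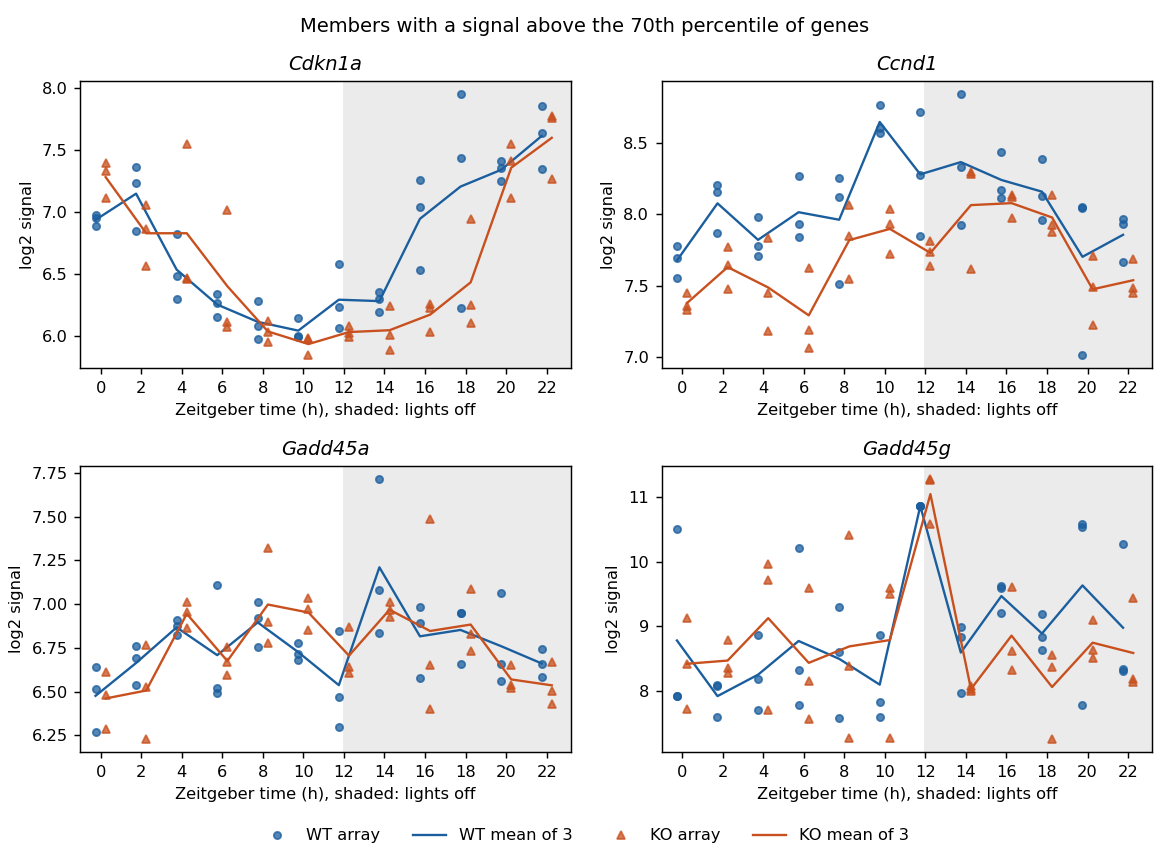
Log2 signal (vertical axes, one scale per panel) of *Cdkn1a*, *Ccnd1*, *Gadd45a* and *Gadd45g* against zeitgeber time, with each of the 72 arrays as a point (WT circles, KO triangles) and lines through the means of 3. *Ccnd1* in KO lay under WT at all 12 times, *Cdkn1a* means lay farthest apart at ZT16 and ZT18 (-0.77 each, neither past the test), and all 6 *Gadd45g* arrays at ZT12 lay above the others.

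*Ccnd1*, cyclin D1 (chromosome 7), was the member whose level differed. In WT its log2 signal ranged from 7.01 to 8.85 over the 36 arrays with a median of 8.05, and in KO from 7.06 to 8.30 with a median of 7.69. The ranges overlap, while the upper end and the middle lie lower in KO. WT had a mean of 8.07 ± 0.38 and KO of 7.70 ± 0.32 (SD, n = 36 per genotype), a difference of -0.37 (SE 0.081, 95% interval -0.53 to -0.21), which is 0.773 of the WT signal (limma adjusted p = 0.00039).

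All 3 *Ccnd1* probes were lower in KO. The other probes differed by -0.31 (ILMN_2601471, adjusted p = 0.00135, over all named probes) and -0.29 (ILMN_2669793, adjusted p = 1.26e-05). The genotypes also separated by set of arrays, the sets of 12 arrays, 1 per ZT, that the deposited column names mark. Means of the WT sets 10, 6 and 9 were 8.20, 8.12 and 7.88, and those of the KO sets 4, 5 and 6 were 7.71, 7.80 and 7.58, so every WT set lay above every KO set.

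**Figure D2:**
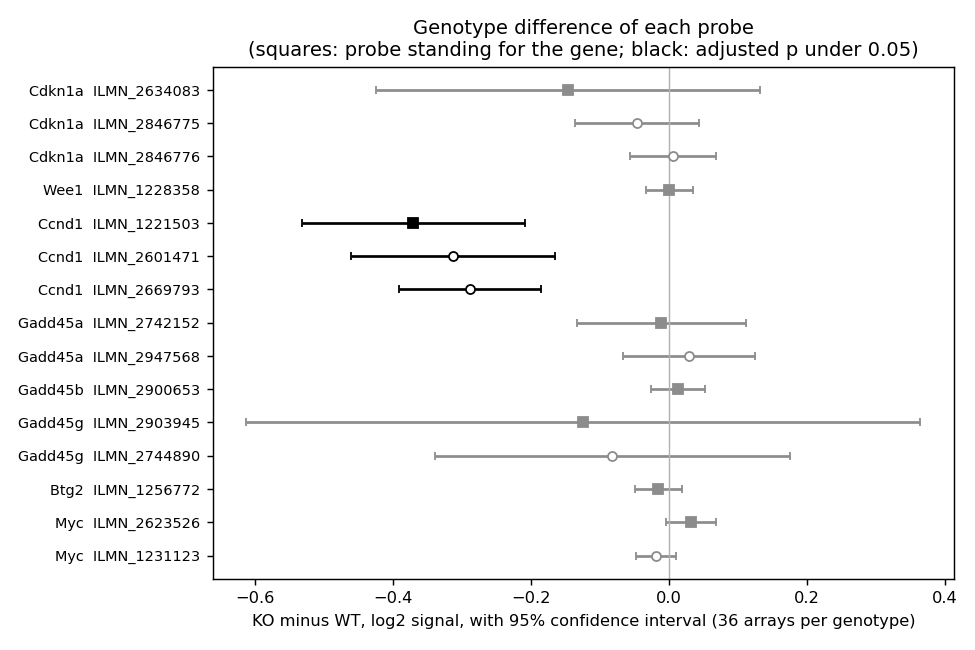
KO minus WT difference in log2 signal (horizontal axis) with its 95% confidence interval for each of the 15 probes, 36 arrays per genotype, squares for the probe standing for its gene and black for adjusted p under 0.05. The 3 *Ccnd1* probes lie between -0.37 and -0.29, and the intervals of the other 12 include 0.

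By time, *Ccnd1* was lower in KO in the mean of all 12 times, and its arrays did not overlap at 5 of them, ZT0, ZT2, ZT6, ZT10 and ZT12. Over all gene and time pairs, 13.2% did not overlap. At ZT10 the WT arrays were at 8.57, 8.60 and 8.77 and the KO arrays at 7.73, 7.93 and 8.04, the widest gap (-0.75, limma adjusted p = 0.0917). At ZT6 WT had 7.84, 7.93 and 8.27 and KO 7.06, 7.19 and 7.62 (-0.72, adjusted p = 0.0998). From ZT14 to ZT20 the groups overlapped, with differences of -0.30, -0.16, -0.18 and -0.23. At ZT20 a WT array had 7.01, the lowest *Ccnd1* value of all 72 arrays, beside 8.04 and 8.05 in the other WT arrays.

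**Figure D3:**
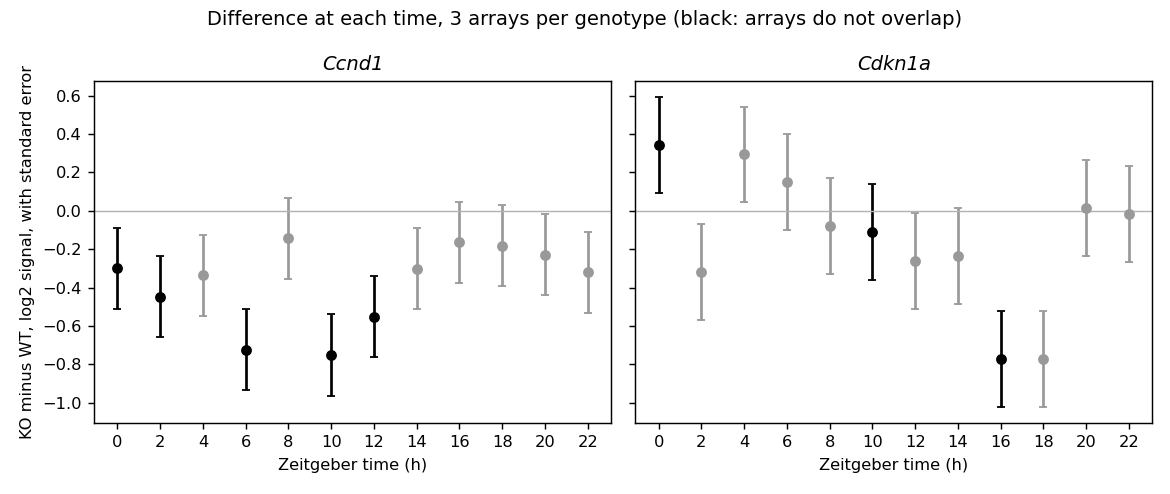
KO minus WT difference in log2 signal (vertical axis, with the standard error from limma) at each zeitgeber time for *Ccnd1* and *Cdkn1a*, 3 arrays per genotype and time. Black points are times at which the arrays of the genotypes do not overlap, at ZT0, 2, 6, 10 and 12 for *Ccnd1* and at ZT0, 10 and 16 for *Cdkn1a*. Over all gene and time pairs, 13.2% do not overlap.

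*Ccnd1* was rhythmic in both genotypes. Its amplitude, the distance from the fitted mean to the fitted peak, was 0.31 ± 0.074 in WT (SE, adjusted p = 0.00768) and 0.30 ± 0.058 in KO (adjusted p = 0.00118). The acrophase, the time of the fitted peak, was ZT12.1 ± 0.90 in WT and ZT14.1 ± 0.75 in KO, a delay of 124 min (SE 70.4 min) that did not pass the test of rhythm (adjusted p = 0.817). WT means went from 7.68 at ZT0 to 8.65 at ZT10, and KO means from 7.29 at ZT6 to 8.08 at ZT16. Fitted set by set, acrophases were ZT10.3, ZT12.2 and ZT13.6 in WT and ZT13.6, ZT14.1 and ZT14.7 in KO. Without WT set 10 the WT rhythm missed the threshold (adjusted p = 0.194), and without KO set 4 the KO rhythm did (adjusted p = 0.0738). It also missed in both genotypes when the means of 3 mice were fitted (adjusted p = 0.0796 in WT and 0.101 in KO), and in WT by the test of any difference among the 12 times (adjusted p = 0.0914). The delay without 1 set ran from 77.6 min (without WT set 9) to 169 min (without WT set 6).

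Cyclins, cyclin-dependent kinases and proliferation genes other than the members were taken as a list. Of 23 measured, 0 were higher and 3 lower in KO, beside 12.3% of all genes that differed in level. The median difference of the list was -0.02, beside 0.00 over all genes. *Ccnd2*, cyclin D2, had the largest difference, at 6.98 ± 0.19 in WT and 6.68 ± 0.16 in KO (-0.30, adjusted p = 1.3e-08). *Cdc25a*, a phosphatase that activates cyclin-dependent kinases, differed by -0.07 (adjusted p = 0.00341) and *Rbl1*, a relative of the retinoblastoma protein, by -0.05 (adjusted p = 0.0254). *Ccnd3*, the third D-type cyclin, had means of 8.32 ± 0.21 and 8.41 ± 0.18 in WT and KO, a difference that missed the threshold (adjusted p = 0.2). It was rhythmic with a peak at ZT18.3 in WT and ZT15.5 in KO (adjusted p = 0.00157 and 0.00126), and its rhythm difference did not pass (adjusted p = 0.562). *Cdk2*, the partner of cyclins E and A, was rhythmic as well, with a peak at ZT8.7 in WT and ZT10.8 in KO, and its difference in rhythm did not pass either (adjusted p = 0.832).

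Markers of some cell types also differed in level between the genotypes. Among all genes, 12.3% differed in level and 6.38% were lower in KO. Of 8 hepatocyte markers 4 were lower in KO and 0 higher, and their summed linear signal ran from 94601 to 103809 in WT and from 85041 to 97239 in KO. Of 7 endothelial markers 3 were lower (*Oit3*, *Clec4g* and *Pecam1*), with sums from 2430 to 4295 in WT and from 2157 to 2988 in KO. Of 7 stellate cell markers 2 were lower, with sums from 2615 to 4167 and from 2318 to 3320. The upper WT ends for endothelial and stellate cell markers and the lower WT end for hepatocyte markers came from the same array. It was the WT array described above for its high marker signal, so the endothelial and stellate cell ends do not show a shift between the genotypes. For hepatocyte markers that array widened the overlap with KO. With this array included, mean sums in WT and KO were 2940 and 2609 for endothelial and 2938 and 2808 for stellate cell markers. For hepatocyte markers they were 98651 and 91571. None of 5 Kupffer cell, 4 cholangiocyte, 7 lymphocyte or 2 erythroid markers differed by limma. The part of cell composition in the lower *Ccnd1* signal was not tested.

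*Cdkn1a*, the gene of p21 (chromosome 17), had the clearest rhythm of the members. Its signal ranged from 5.98 to 7.95 in WT with a median of 6.56, and from 5.84 to 7.78 in KO with a median of 6.25. Group means were highest at ZT22 and lowest at ZT10 in both genotypes, at 7.61 and 6.04 in WT (2.97-fold) and at 7.60 and 5.93 in KO (3.17-fold). The means at ZT10 lay within the range of the dim *Gadd45b* arrays (5.82 to 6.18 in WT). Signals there were near the low end of the array, which limits the trough and the fold. The amplitude was 0.70 ± 0.074 in WT (SE, adjusted p = 5.98e-08) and 0.75 ± 0.078 in KO (adjusted p = 5.38e-08). The rhythm passed in both genotypes under all 19 alternatives that were run, with a highest adjusted p of the rhythm test of 0.00202 in WT and 0.00664 in KO. Some of them could not change the result. Leaving out a set of 1 genotype keeps the fit of the other, and a threshold of 0.1 is looser.

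The group means of the genotypes were close at the trough and at the peak, and farthest apart on the rise between them. At the trough the low signals limit how far the genotypes could differ. At ZT16 the WT arrays were at 6.53, 7.04 and 7.26 and the KO arrays at 6.03, 6.22 and 6.26, with no overlap (-0.77, limma unadjusted p = 0.00318, adjusted p = 0.162). At ZT18 WT had 6.23, 7.43 and 7.95 and KO 6.10, 6.25 and 6.94, so 1 WT array lay among the KO arrays (-0.77, adjusted p = 0.177). At ZT20 the genotypes were together again, with WT at 7.25, 7.35 and 7.41 and KO at 7.11, 7.41 and 7.55. The KO arrays at ZT16 were near the KO trough, and at ZT20 they lay on both sides of the WT arrays.

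The fitted acrophase was ZT21.3 ± 0.41 in WT and ZT23.1 ± 0.40 in KO (SE), a delay of 109 min (SE 34.2 min). The interaction test had an unadjusted p of 0.00695 and an adjusted p of 0.333, so the delay did not pass over all genes. The other probes gave similar times, ZT20.9 and ZT20.5 in WT and ZT23.2 and ZT23.4 in KO, from smaller amplitudes of 0.12 to 0.22. They were dimmer, with means over all arrays of 6.24 (ILMN_2846775) and 5.96 (ILMN_2846776). These probes read the same mRNA and are no further replicates. By set, acrophases were ZT20.5, ZT21.7 and ZT21.7 in WT and ZT21.8, ZT23.0 and ZT0.33 in KO, and the delay without 1 set ran from 67.8 min (without KO set 6) to 144 min (without KO set 4). The mean level did not pass the test, with 6.72 ± 0.59 for WT and 6.58 ± 0.63 for KO (SD, n = 36; -0.15, 95% interval -0.43 to 0.13, adjusted p = 0.662).

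**Figure D4:**
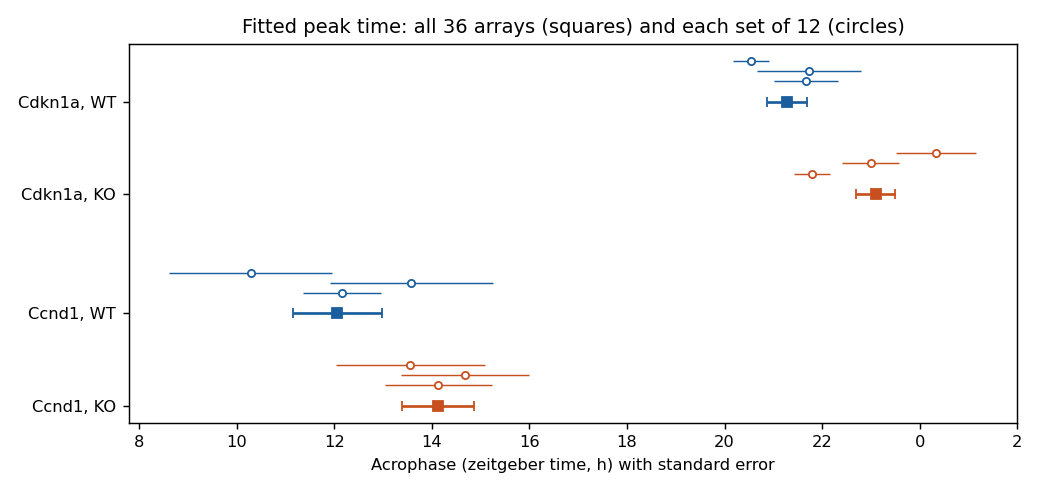
Acrophase in zeitgeber time (horizontal axis, h) with its standard error for *Cdkn1a* and *Ccnd1*, from all 36 arrays of a genotype (squares) and from each set of 12 arrays (circles). *Cdkn1a* peaks at ZT21.3 in WT and ZT23.1 in KO, and *Ccnd1* at ZT12.1 and ZT14.1, with sets that spread over about as much as the delays.

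Clock genes served as the reference for phase. Of 14 measured, 11 were rhythmic in WT and 10 in KO, beside 15.8% and 13.7% of all genes. Among them 0 differed in level or rhythm, beside 12.3% and 0.127% of all genes. The paper reports *Per1* mRNA as strongly lower in KO, and *Bmal1* and *Clock* mRNA as slightly higher and delayed. The missed thresholds here thus do not show that clock mRNAs were unchanged. *Dbp*, a transcription factor driven through E-boxes, peaked at ZT11.0 in WT and ZT11.4 in KO. *Nr1d1*, which codes for the repressor REV-ERBα, peaked at ZT7.36 in WT and ZT8.09 in KO, and *Per2*, a repressor of the loop, at ZT15.9 and ZT16.0. These acrophases lay closer together between the genotypes than those of *Cdkn1a*, and the difference between the delays was not tested. The 3 genes had the largest WT amplitudes among the rhythmic clock genes, and none peaked late in the night, where *Cdkn1a* did. The paper reports a general delay of rhythmic genes in KO whose size varied with phase. It was largest for peaks in the later part of the light phase and late in the night. *Cdkn1a* peaked near the second of these, so its delay is not shown to be set apart.

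The CDK inhibitors and the BTG and TOB family without the members had 10 measured genes, 4 of them lower in KO and 0 higher. Among all genes, 6.38% were lower in KO. *Cdkn1c*, the gene of p57, was at 6.62 ± 0.15 in WT and 6.46 ± 0.10 in KO (-0.17, adjusted p = 7.81e-06). *Tob2*, an antiproliferative relative of BTG2, was lower by the same test (-0.18, adjusted p = 0.0418) and rhythmic in both genotypes, with peaks at ZT13.5 and ZT13.0. *Cdkn2b*, the gene of p15, differed by -0.06 (adjusted p = 0.00258). *Btg1* was rhythmic with peaks at ZT0.40 in WT and ZT1.46 in KO, and its level did not pass the test (-0.26, adjusted p = 0.132).

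Of 21 measured p53 targets other than the members, 3 were higher and 1 lower in KO, beside 12.3% of all genes that differed. *Mdm2*, the ubiquitin ligase that degrades p53, was at 8.04 ± 0.23 in WT and 8.28 ± 0.14 in KO (0.24, adjusted p = 2.98e-05), and *Ccng1*, cyclin G1, at 7.31 ± 0.17 and 7.45 ± 0.12 (0.14, adjusted p = 0.00149). *Ei24*, a protein of the endoplasmic reticulum, was lower (-0.17, adjusted p = 0.000246). Rhythms passed for 5 of these genes in WT and 4 in KO, beside 15.8% and 13.7% of all genes. *Bbc3*, which codes for the pro-apoptotic PUMA, peaked at ZT2.5 and ZT1.97, *Fas*, a death receptor, at ZT20.8 and ZT23.4, and *Plk3*, a stress-responsive kinase, at ZT13.9 and ZT12.4 in WT and KO. None of 10 measured DNA damage checkpoint genes differed in level or had a 24 h rhythm in either genotype.

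*Gadd45g* (chromosome 13) varied more than any other member. Its signal ranged from 7.58 to 10.87 in WT with a median of 8.73, and from 7.25 to 11.28 in KO with a median of 8.46. Group means spanned 7.67-fold in WT and 8.08-fold in KO and were highest at ZT12 in both. The WT arrays at ZT12 were at 10.85, 10.86 and 10.87 and the KO arrays at 10.59, 11.26 and 11.28. All 6 lay above the other 66 arrays, of which the highest was at 10.58.

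The 6 arrays at ZT12 had a mean of 10.95 and the other 66 of 8.64 ± 0.87 (SD), a 4.97-fold difference. ZT12 was picked for this value, so it is given with no test. Over all 16593 genes and all 12 times, 2 genes had all 6 arrays of a single time above the rest of the arrays, *Gadd45g* and *Errfi1*, an inhibitor of the EGF receptor, both at ZT12. The second probe (ILMN_2744890), which correlated with the first at r = 0.98 over the 24 group means, had a mean of 7.83 at ZT12 and of 6.44 at the other times, with 3 other arrays above the lowest at ZT12. The pattern did not rest on the WT array at ZT12 that stood apart, whose *Gadd45g* value of 10.87 lay with the other WT arrays.

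The 24 h rhythm of *Gadd45g* missed the threshold in WT (amplitude 0.59 ± 0.24, adjusted p = 0.243) and in KO (0.40 ± 0.24, adjusted p = 0.601). A test of any difference among the 12 times missed it too, with limma adjusted p = 0.135 in WT and 0.087 in KO, where 9.52% and 11.1% of all genes passed. The level did not pass the genotype test (-0.12, 95% interval -0.61 to 0.37, adjusted p = 0.868).

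Mice of one genotype and time differed widely in *Gadd45g*. The SD within groups was 0.89, at percentile 99.96 of all genes. At ZT20 the WT arrays were at 7.78, 10.54 and 10.58, and at ZT8 the KO arrays at 7.27, 8.39 and 10.42. By contrast the WT arrays at ZT12 had an SD of 0.0054. Away from ZT12, 6 arrays lay above 10.

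The genes whose 24 group means followed *Gadd45g* most closely, among genes above the 25th percentile, were *Socs3* (Pearson r = 0.79), *Zfp747* (r = 0.78) and *Phlda1* (r = 0.76). *Socs3* codes for a feedback inhibitor of cytokine signalling. These are descriptions over group means of the same arrays.

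*Gadd45a* (chromosome 6), the p53-inducible member of the family, ranged from 6.27 to 7.72 in WT and from 6.23 to 7.49 in KO, with medians of 6.75 and 6.74. WT (6.76 ± 0.26) and KO (6.75 ± 0.27) missed the threshold for level (-0.01, 95% interval -0.13 to 0.11, adjusted p = 0.964). It passed the rhythm test in KO (amplitude 0.20 ± 0.055, peak at ZT11.3 ± 1.1, adjusted p = 0.0352) and not in WT (0.11 ± 0.061, adjusted p = 0.503). The difference in rhythm did not pass (adjusted p = 0.882), so the genotypes are not shown to differ. Its second probe (ILMN_2947568) gave an amplitude of 0.22 at ZT11.5 in KO (adjusted p = 0.000815) and of 0.06 in WT (adjusted p = 0.704).

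The KO rhythm of *Gadd45a* missed the threshold when any 1 of the 3 KO sets was left out (adjusted p = 0.247, 0.114 and 0.167 without sets 4, 5 and 6), with the means of 3 mice (0.211), by the test of any difference among the 12 times (0.0915) and with a 12 h term added (0.0543). The highest WT value, 7.72 at ZT14, stood beside 6.83 and 7.08 in the same group, and the highest KO value, 7.49 at ZT16, beside 6.402 and 6.65. As a description over the 24 group means, *Gadd45a* correlated with *Gadd45b* at r = 0.24 and with *Gadd45g* at r = -0.16, and *Gadd45b* with *Gadd45g* at r = -0.16.

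Partners of GADD45 proteins and stress kinases had 11 measured genes, with 2 higher in KO and 0 lower. Among all genes, 12.3% differed in level. *Mapk9*, the kinase JNK2, was at 9.16 ± 0.14 in WT and 9.34 ± 0.12 in KO (0.19, adjusted p = 2.44e-06), and *Map2k4*, a kinase that activates JNK and p38, at 7.95 ± 0.14 and 8.08 ± 0.12 (0.12, adjusted p = 0.00178). Rhythms passed for 5 of the 11 genes in WT and 4 in KO, beside 15.8% and 13.7% of all genes. *Mapk14*, the kinase p38α, peaked at ZT17.5 in WT and ZT16.7 in KO.

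*Gadd45b* (chromosome 10) was dim, at percentile 50.2 of signal, and its arrays stayed within 5.82 and 6.18 in both genotypes. WT (6.002 ± 0.086) and KO (6.02 ± 0.082) missed the threshold for level (adjusted p = 0.812). Its rhythm did not pass, with amplitudes of 0.04 and adjusted p = 0.323 in WT and 0.405 in KO.

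*Myc* (chromosome 15), at percentile 30.7, ranged from 5.79 to 6.13 in WT and from 5.75 to 6.07 in KO. Its mean was higher in KO at 10 of 12 times. The arrays did not overlap at 3 of these times (ZT10, ZT14 and ZT22), beside 13.2% of all gene and time pairs. The level difference of 0.03 (95% interval -0.0038 to 0.068) did not pass limma's test (adjusted p = 0.323). The second, dimmer probe had the opposite sign (-0.02, adjusted p = 0.593) and followed the first at r = -0.38 over the 24 group means, so its probes gave no shared profile.

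**Figure D5:**
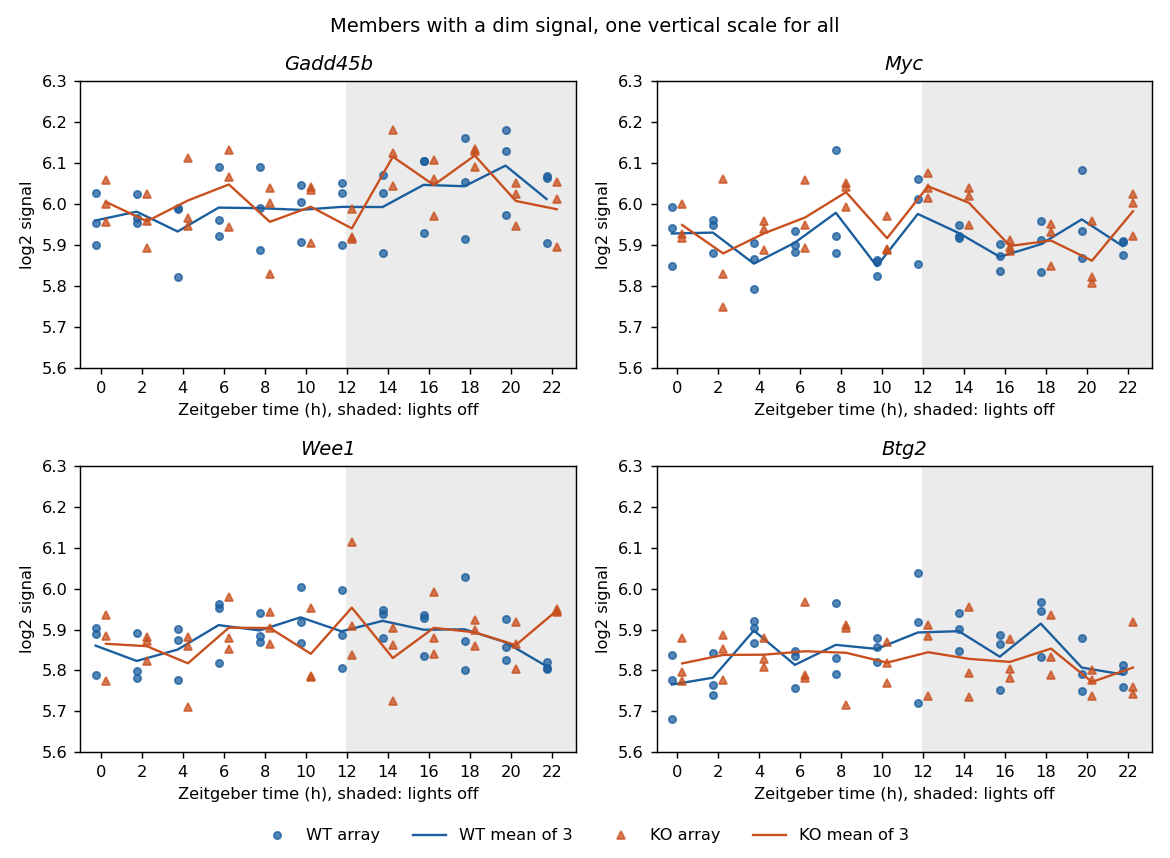
Log2 signal (vertical axes, all from 5.6 to 6.3) of *Gadd45b*, *Myc*, *Wee1* and *Btg2* against zeitgeber time, with each array as a point (WT circles, KO triangles) and lines through the means of 3. The arrays of each gene lie within 0.25 to 0.40 log2 units per genotype, and WT and KO overlap at most times.

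*Wee1* (chromosome 7), the kinase gene with E-boxes, was at percentile 15.2 and ranged from 5.78 to 6.03 in WT and from 5.71 to 6.11 in KO. Its WT amplitude was 0.04 ± 0.014 with a peak at ZT11.9 ± 1.3 (unadjusted p = 0.0168, adjusted p = 0.0907), and its KO amplitude 0.01 ± 0.018 (adjusted p = 0.935). At ZT22 the WT arrays were at 5.80, 5.81 and 5.82 and the KO arrays at 5.94, 5.95 and 5.95, with no overlap (0.14, unadjusted p = 0.0269, adjusted p = 0.713). The rhythm difference did not pass (adjusted p = 0.837). When the means of 3 mice per time were fitted instead, the WT rhythm passed (adjusted p = 0.0392).

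*Btg2* (chromosome 1), at percentile 5.66, was the dimmest member, with arrays from 5.68 to 6.04 in WT and from 5.71 to 5.97 in KO. Neither its level (-0.01, adjusted p = 0.743) nor its rhythm (adjusted p = 0.172 in WT and 0.846 in KO) passed. For *Wee1*, *Btg2*, *Myc* and *Gadd45b* the amplitudes were at most 0.05 on this scale. These signals lay near the low end of the array, and a missed threshold does not show that a gene did not change.

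The last lists were immediate early genes, the class to which *Btg2* and *Myc* belong, and MYC partners and targets. Of 17 immediate early genes, 0 were higher and 1 lower in KO (*Klf6*, -0.17, adjusted p = 0.00197), beside 12.3% of all genes that differed. *Dusp1*, a phosphatase of stress kinases, peaked at ZT16.6 in WT and ZT16.9 in KO. *Egr1* passed in WT alone (amplitude 1.36, adjusted p = 0.00125, beside 0.61 and adjusted p = 0.197 in KO), and its rhythm difference did not pass (adjusted p = 0.672). Of 16 MYC partners and targets, 2 were higher and 2 lower in KO, beside 12.3% of all genes that differed. Rhythms passed for 9 of the 16 in WT and 7 in KO, beside 15.8% and 13.7% of all genes. *Odc1*, the first enzyme of polyamine synthesis and a classical MYC target, was lower in KO (9.61 ± 0.52 in WT, 9.29 ± 0.32 in KO, -0.32, adjusted p = 0.0194), with amplitudes of 0.65 at ZT19.3 and 0.36 at ZT18.8. Its difference in rhythm did not pass (adjusted p = 0.121).

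It was also asked whether members varied together among mice of the same genotype and time. Deviations from the group mean were correlated for the 28 pairs of members over all 72 arrays, with a two-sided permutation test within groups (100000 draws). No pair passed after Benjamini-Hochberg adjustment over the pairs for Pearson's r or for Spearman's rho, and 2 of them had a permutation p under 0.05 before it. The strongest was *Wee1* with *Btg2* (r = 0.34, p = 0.0248, adjusted p = 0.444; rho = 0.33, p = 0.02, adjusted p = 0.5), with r = 0.51 in WT and 0.20 in KO, -0.08 to 0.88 within the 6 sets and 0.32 without the 2 arrays farthest from the median. *Ccnd1* with *Gadd45g* followed (r = 0.34, permutation p = 0.0317, adjusted p = 0.444; rho = 0.30, p = 0.0357, adjusted p = 0.5), with r = 0.45 in WT and 0.19 in KO, 0.02 to 0.52 within sets and 0.25 without the 2 farthest arrays.

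The genes most like the rhythmic members over the 24 group means were *Lag3* (r = 0.89), *Acnat2* (r = 0.88) and *Lgalsl* (r = 0.87) for *Cdkn1a*, and *Sox7* (r = 0.85), *Psmb10* (r = 0.83) and *Rpain* (r = 0.82) for *Ccnd1*. *Acnat2* peaked at ZT20.9 in WT and ZT23.3 in KO, as *Cdkn1a* did, whereas *Lag3* and *Lgalsl* had peaks at ZT22.4 and ZT23.3 in WT and at ZT22.1 and ZT23.1 in KO. Over the group means *Cdkn1a* correlated with *Ccnd1* at r = -0.41, with *Gadd45a* at r = -0.52 and with the dim *Btg2* at r = -0.42. Acrophases of *Cdkn1a* and *Ccnd1* lay near the end and near the start of the night in WT. For *Gadd45a* the closest genes were *Mrpl55* (r = 0.74), *Zfp28* (r = 0.70) and *Rasa2* (r = 0.70), and for *Gadd45b* *Wnt5b* (r = 0.71), *Sidt2* (r = 0.70) and *Txn2* (r = 0.69). For the dim *Wee1*, *Btg2* and *Myc* the closest were *Acsm3* (r = 0.66), *Zfp658* (r = 0.71) and *Vamp8* (r = 0.74).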

How the data were processed

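Liver RNA of 36 WT and 36 *Scp2* KO mice was measured on Illumina arrays. The authors deposited the intensity of each of 25697 probes as average signal without normalization, and a second table of log2 values, normalized between arrays, which the authors deposited beside it, with the Partek software named in the submitters' processing notes and no version or settings in the sources used here. Signals were corrected with normexp (offset 50) in limma 3.58.1 (R 4.3.3), quantile normalized and taken as log2. Of the probes, 23978 had a gene name, and the brightest probe stood for its gene. Levels were compared with limma, single times with contrasts of the 24 group means in limma, rhythms with an F-test (2 and 33 degrees of freedom) and rhythm differences with limma's F-test of the interaction, adjusted over all genes by Benjamini-Hochberg. Correlations between members used Python 3.11.15. Tests were tried on simulated data. The number of arrays limits the precision. Named genes were all members, *Scp2*, in each list at most 3 genes by level difference and 3 by WT amplitude among those past the test, and the 3 genes most like each member; *Errfi1* was named after its values were seen. Members and lists were chosen with earlier results of these data known. Alternatives were the deposited values, no background correction, median scaling, a filter on dim genes, all probes, thresholds of 0.01 and 0.1, other rhythm models, sets as a random block, a replicate block, and leaving out each set or a WT array at ZT12.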

Additional observations from a re-analysis of the deposited data

How the results depend on the processing

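The lower *Ccnd1* level in KO kept its direction and passed under all 17 alternatives, from -0.46 to -0.30 (limma adjusted p from 2.01e-06 to 0.0166), and the number of members that differed in level stayed at 1 in each. No member passed the rhythm difference under any alternative, and *Cdkn1a* was rhythmic in both genotypes under all of them. *Wee1* and *Btg2* were left out by the filter on dim genes. For members whose level did not pass, no alternative made it pass, and the sign of the *Wee1*, *Gadd45a* and *Gadd45g* differences varied. The number of members rhythmic in WT was 1 of 8 with the test of any difference between the 12 times, and from 1 to 2 when each set was left out, lowest without WT set 10. In KO it was 1 with the means of 3 mice, and from 1 to 3 when each set was left out, lowest without KO set 4. Single-time contrasts that passed rose from 0 to 2 at a threshold of 0.1 (*Ccnd1* at ZT6 and ZT10) and were from 0 to 2 when each set was left out: *Cdkn1a* at ZT18 without WT set 6 (-1.26, adjusted p = 0.00308), and *Ccnd1* at ZT6 and ZT12 without WT set 9 (adjusted p = 0.0405 and 0.019). In each of these contrasts the set left out held the WT array nearest to KO, for *Cdkn1a* the one at 6.23 that lay among the KO arrays. The larger gaps came with its removal and are no support for a difference. 

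The replicate block was fitted on the deposited log2 values, since the signal columns carry set names and no replicate numbers. With it 1 single-time contrast passed, *Ccnd1* at ZT10 (-0.67, adjusted p = 0.0336), where 0 did without it, and genes differing in level went from 2026 to 2058. WT and KO samples of one time and number deviated together by a mean r of 0.13 (22 of 36 pairs over 0.1), against -0.06 for other numbers, and 24 of 36 KO samples were closest to the WT sample of their own number. The labels give no meaning to the number, so it was not taken as pairing. For the arrays the paper describes a harvest over consecutive days, whereas its methods describe collection over 24 h. Whether a replicate number or a set stands for a day or a litter is not given. The main tests held no term for number or set. P-values of single times measure the spread between mice of a group. Those of the level test measure the spread of arrays over all times, rhythm included, and those of rhythm tests the spread around the fitted curve. Alternatives for the *Cdkn1a* delay by set, and the *Gadd45g* values at ZT12 without an array, were chosen after seeing the data. Probes near background limit what can be said of *Wee1*, *Btg2*, *Myc* and *Gadd45b*, and of the *Cdkn1a* trough.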
